A study of Mus musculus with 8 samples.

Results

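The 5′ ends of transcribed genes were examined in crosslinking and immunoprecipitation (CLIP) data for Zmat3, an RNA-binding zinc finger protein whose gene is a target of p53. The regions were chosen by position and by called peaks. In autosomal protein-coding genes with 10 or more called peaks, the gene strand was taken as the strand with most called peaks over the 4 lists against input. All called peaks on that strand with a midpoint in the first 1000 nt of a gene span of at least 10 kb were then taken. Of 978429 called peaks in 7 lists, 45037 met this rule. They lay in 4721 of 6332 eligible genes (74.6%) and merged into 12110 sites with a median length of 63 nt.

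The samples were mouse embryonic fibroblasts, a primary cell type grown from mouse embryos, transformed with the viral oncoprotein E1A and the activated Ras allele HrasG12V. Per the labels, the 3 control lines (Cas9+;E1A;HrasG12V) each carried a different negative-control guide RNA, named EV, SPA and ACOCA. The 1 knockout line (Zmat3-/-;E1A;HrasG12V) carried no guide RNA, and Cas9 is not in its label, so that genotype, guide transduction and line cannot be told apart. Each line gave 1 immunoprecipitate (IP) with an anti-Zmat3 antibody and 1 input from UV-crosslinked cells, and only complexes that ran between 35 and 110 kDa were sequenced. The 4 lists over input compare an IP with input, and the other 3 compare a control IP with the knockout IP, so those 3 share a library. Those 3 held 7047, 6477 and 5663 of the regions, against 7046, 6477 and 5663 for the same controls over input. No site was called over the knockout IP alone, so totals over 7 lists mostly hold each control peak under both comparators. The 1910 sites called in all 4 IPs over input are also those called in all 7 lists. With 1 knockout library against 3 control libraries, the smallest p an exact permutation test can give is 0.25, and all comparisons here are descriptions.

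An mRNA made by RNA polymerase II begins with a capped first exon that holds the 5′ untranslated region and is often rich in G and C near the start. In long genes the first exon usually ends soon after the start, and the first intron, which is removed by splicing, follows it. The first 1000 nt of a span can therefore hold both mature and unspliced sequence. Input RNA was cut from the same 35 to 110 kDa range. It measures how much of each stretch is in crosslinked complexes of that size, not how much RNA is present. A peak above input is a stretch recovered more often by the IP than in such an input. The knockout IP gives the recovery by the antibody in a line without Zmat3. Each library came from a bulk lysate, so binding in fewer cells and less bound RNA per cell cannot be told apart.

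The targeted gene was itself among the genes with a 5′ site, at chr3:32365384-32365621 on the minus strand. The log2 folds over input at the Zmat3 site were 0.31, 0.82 and -0.67 in controls 1 to 3 and 0.07 in the knockout, and over the knockout IP they were -1.34, -0.43 and -2.14. The start of Zmat3 was thus still recovered as RNA in the knockout line, which says nothing of the protein.

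The position of the regions was checked against RefSeq starts of build GRCm38.p6. Of the eligible genes, 5138 were in the table of starts, and 5128 of them had the strand given by the called peaks. The 10 genes with the other strand held 20 of the regions, all in Baiap2l1 and Mast1. A table start fell exactly on the span start in 2319 genes and in the first 1000 nt in 4504. Of 10 fibroblast markers, called peaks over input were found for 4 to 5 per IP, among them Fn1, Vim, Pdgfrb and Fbn1 in all 4 IPs. The defining markers Col1a1, Col1a2, Thy1, S100a4 and Lum had none. Of 5 epithelial markers, 1 to 3 had called peaks, with Epcam in all 4 IPs. Of 5 immune markers, Cd68 had 1 to 3 peaks in each IP and the other 4 had none. Of 4 neuronal and 4 muscle markers, Syt1 and Des had peaks in control 2, and 0 of 4 endothelial markers had any. Their part in the results was not tested.

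The first bases of 11 transcripts are shown because a called site overlapped them in all 7 lists. They are the 4 sites with the highest lowest log2 fold over input of the 4 IPs, the 4 with the lowest highest value, and the 4 with the lowest control mean among transcripts that begin with C and 4 pyrimidines, Nap1l1 being in both of the last sets. Such a pyrimidine start is the hallmark of mRNAs whose translation depends on growth signals. The bases are the first 30 from the first table start in the span, from RefSeq (GRCm38.p6), 5′ to 3′, and capitals mark bases inside the called site.
Ncapg2 (chr12:116405436-116405465, plus strand): GCGGGAAACTATGGGTCTGTGGTGAGGTGA
Tm9sf3 (chr19:41263975-41264004, minus strand): cgggggcggcgCGGAGCGGGCGGTGACGGC
Snx14 (chr9:88438900-88438929, minus strand): gtgcggctgagtctagCTGTGAAGCTGGGT
Nt5dc3 (chr10:86779005-86779034, plus strand): ggttcttgggccgcgccggcacttgctcAG
Nap1l1 (chr10:111473227-111473256, plus strand): ctTTTTTAGCGCCATCTGCTCGCGGCGCCG
Arpc2 (chr1:74236517-74236546, plus strand): ggagccgggggCTGGGCGGGGACCGGGATC
Clptm1 (chr7:19665001-19665030, minus strand): gggggcggggaccCGGAGCAGGAAGATGGC
Tpm1 (chr9:67049184-67049213, minus strand): GCTCGCACTCCGGCTCTGCTACCCCACCGC
Marchf6 (chr15:31531008-31531037, minus strand): cccccctccccggcgctcgctttcTGTCAG
Lamb1 (chr12:31265293-31265322, plus strand): CTTCTTTGGGCCGGTGGGCTGCCAGGAGCG
Hsd17b12 (chr2:94157880-94157909, minus strand): cttccCCATTCACCGTAGTAGTGAGGCCTA

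At transcript starts the controls lay near input and the knockout below it. Over the whole series, 1058 sites in 1052 genes overlapped the first 30 bases of a table start, and 401 of them were called in all 7 lists. The median log2 fold over input of those 401 sites was 0.42, 0.016 and -0.21 in controls 1 to 3 and -0.94 in the knockout. Ncapg2, a condensin II subunit, had log2 folds over input of 1.31, 1.15 and 0.60 in controls 1 to 3 and 1.23 in the knockout. The knockout value lay inside the range of the controls. Nap1l1, a nucleosome assembly protein, had -0.71, -1.79 and -2.94 in the controls and -2.02 in the knockout, again inside the range. Arpc2, a subunit of the actin-nucleating Arp2/3 complex, had -0.71, -0.64 and -0.86 in the controls and -1.94 in the knockout, which lay below all 3. Tpm1, a tropomyosin of the actin filament, had -1.27, -0.92 and -0.51 in the controls and -1.51 in the knockout. Over the knockout IP, its log2 folds of -2.61, -1.53 and -1.14 were below 0 in all 3 controls.

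The other pyrimidine starts named had control values on both sides of input. Marchf6, a ubiquitin ligase of the endoplasmic reticulum, had log2 folds over input of 0.052, -0.77 and -1.34 in the controls and -1.80 in the knockout. Lamb1, a laminin chain of the basement membrane, had -0.42, -0.57 and 0.44 in the controls and -1.84 in the knockout. For both genes the knockout lay below all 3 controls. Hsd17b12, an enzyme of fatty acid elongation, had -0.42, -0.26 and 0.60 in the controls and -0.35 in the knockout, inside the control range. Genes with a pyrimidine start had a 5′ minus inner difference over input, as defined below, of -0.40 ± 0.16 (SD, n = 3 controls), against -0.43 ± 0.16 (SD, n = 3) for other starts. The knockout values were -0.79 and -0.57.

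Called peaks were dense just behind the gene start. Over input, 7046, 6477 and 5663 of the regions were called in controls 1 to 3 and 6664 in the knockout. They made up 4.76% ± 0.629 (SD, n = 3) of the called peaks in the controls and 3.98% in the knockout. Counted per 100 nt, the number was highest at 100 to 199 nt from the start, with 1478, 1447 and 1189 in controls 1 to 3 and 1299 in the knockout. At 900 to 999 nt it was 269, 276, 249 and 363. The first 300 nt held 48.9% to 50.7% of the regions in the controls and 45.5% in the knockout. All 4 IPs thus had most peaks in the same bin, as the plot by distance from the start shows.

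**Figure D1:**
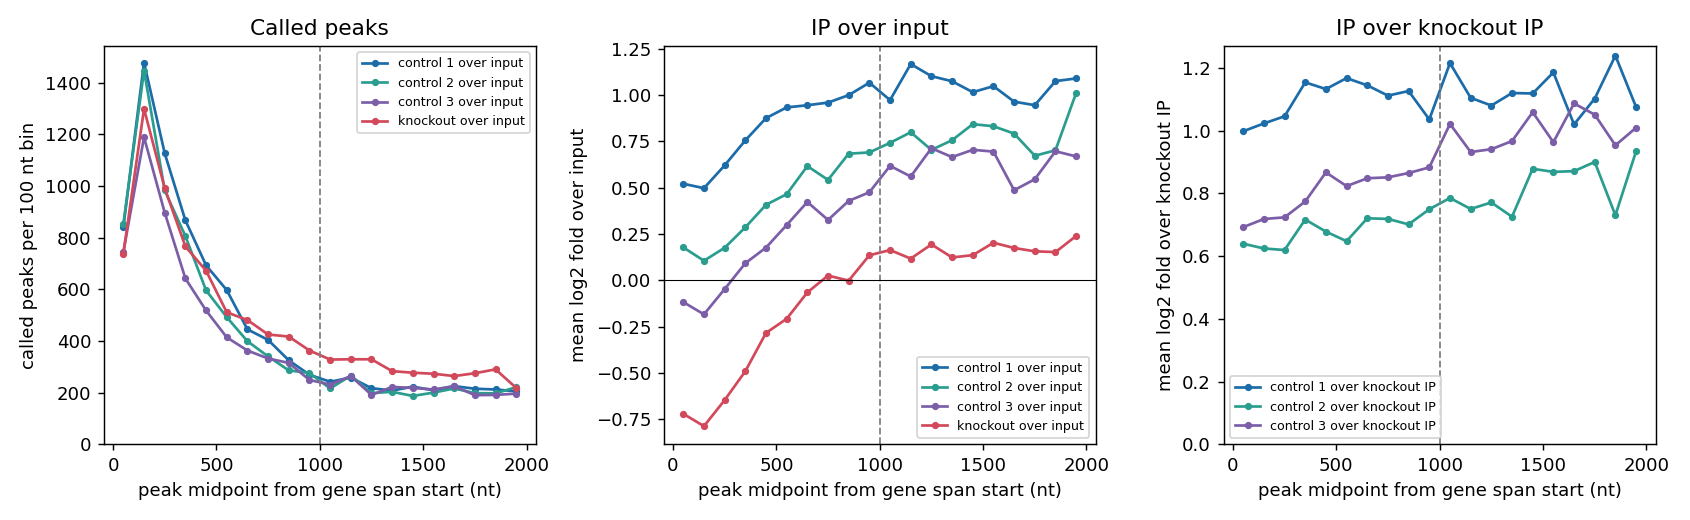
Called peaks by distance of the midpoint from the gene start in nt, in 100 nt bins with 1 line per list: their number over input (left), the mean log2 fold over input (middle) and the mean log2 fold over the knockout IP (right), with a dashed line at the limit of 1000 nt. All 4 IPs have most peaks at 100 to 199 nt, and their mean fold over input is lower near the start than farther in.

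Despite the number of peaks, recovery over input, taken over all called peaks, was lower at 5′ ends than in the inner part of the same genes. For the regions, controls 1 to 3 had median log2 folds over input of 0.64, 0.21 and 0.012 (mean 0.29 ± 0.32, SD, n = 3), and the knockout had -0.51. Peaks more than 1000 nt from both ends of the same genes, called inner peaks, had medians of 0.90, 0.69 and 0.60 in the controls and 0.23 in the knockout. Peaks in the last 1000 nt had medians of 0.64, 0.38 and 0.25 in the controls and 0.23 in the knockout, so that in control 1 the 5′ and 3′ ends were level. Of the regions, the share above input was 64.8% ± 13.1 (SD, n = 3) in the controls and 34.2% in the knockout. For inner peaks it was 81.2% ± 3.41 (SD, n = 3) and 61.3%. The deposited folds cluster at few numbers, so medians move in steps. The commonest number of each list made up 9.93%, 10.8% and 10.4% of the regions in controls 1 to 3 and 10.4% in the knockout. Among inner peaks the share was larger, at 13.9%, 14.8%, 20.4% and 23.6%. Both knockout medians of 0.23 are such a repeated number. Means gave the same order, at 0.73, 0.31, 0.077 and -0.43 for the regions and 1.07, 0.85, 0.66 and 0.15 for inner peaks. Median lengths were 67, 64, 59 and 53 nt for the regions and 53, 50, 46 and 41 nt for inner peaks.

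**Figure D2:**
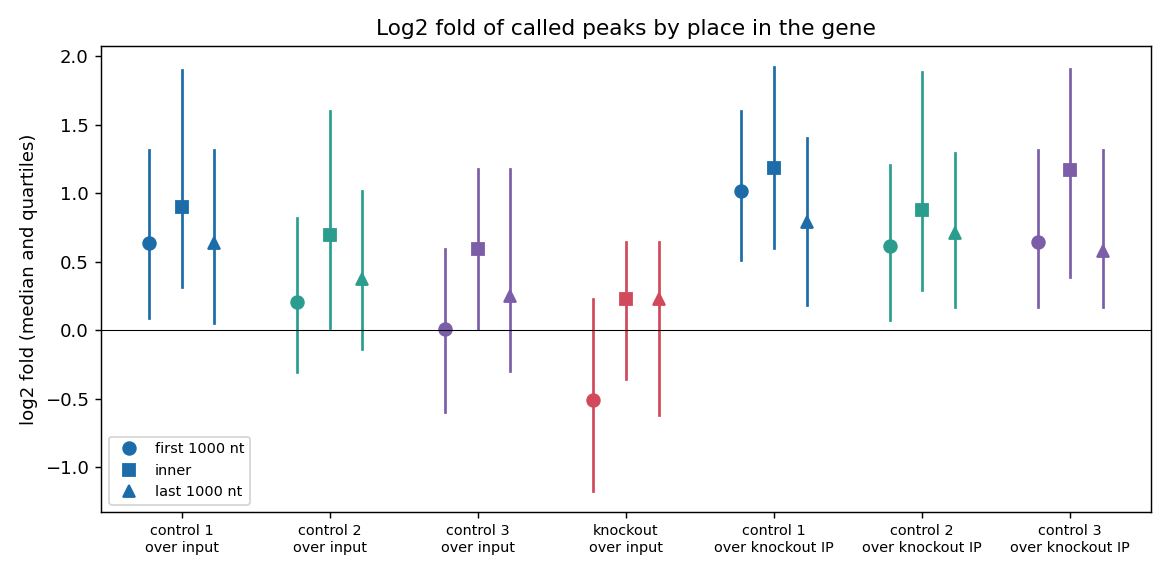
Log2 fold of called peaks in the first 1000 nt (circles), the inner part (squares) and the last 1000 nt (triangles) of the same genes, for each list over input and over the knockout IP, with points at the median and bars from the lower to the upper quartile over peaks. Over input, the 5′ median of each IP lies below its inner median, and the knockout median at 5′ ends, -0.51, is the only median below 0.

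In every IP, recovery over input was lower in the first 300 nt than farther from the start. In the first 300 nt the median log2 fold over input was 0.45, 0.016 and -0.18 in controls 1 to 3 and -0.77 in the knockout. From 300 to 699 nt it was 0.80, 0.34 and 0.18 in the controls and -0.35 in the knockout. From 700 to 999 nt it was 0.90, 0.60 and 0.33 in the controls and 0.23 in the knockout. From 1000 to 1999 nt, outside the rule, it was 0.90, 0.69 and 0.60 in the controls and 0.23 in the knockout. By median, controls 2 and 3 were still below this level at 700 to 999 nt, and control 1 and the knockout were at it. The knockout median is a repeated number, and its mean was 0.049 at 700 to 999 nt against 0.16 at 1000 to 1999 nt. The share of knockout peaks above input was 54.4% against 60.7%. The mean of control 1 was 1.00 against 1.05. The 3 peaks nearest inside the limit, in Usf2, Apc and Zfp532, had log2 folds over input of 1.05, 1.12 and 2.31. The 3 nearest outside it, in Zfr, Pcbp4 and Zfp609, had 1.19, 0.77 and 0.60.

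The same order held within single genes. For each gene, the median over its inner peaks was subtracted from the mean of its 5′ peaks, in genes with at least 3 inner peaks in the list. The median difference in log2 fold over input was -0.24 over 3340 genes of control 1, -0.50 over 3498 genes of control 2 and -0.55 over 3014 genes of control 3, a mean of -0.43 ± 0.16 (SD, n = 3). It was -0.58 over 3321 genes of the knockout. The 5′ end was the lower part in 61.0%, 71.6% and 72.3% of genes in the controls and in 70.4% in the knockout. Of 2013 genes measured in all 4 IPs, 668 (33.2%) had a lower 5′ end in all 4, and 61 (3.03%) in none. The last 1000 nt differed from the inner peaks by less, with medians of -0.15, -0.22 and -0.077 in the controls and 0 in the knockout.

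Against the knockout IP, which takes the place of the input as comparator, the gap within genes was smaller. The regions had, for controls 1 to 3, median log2 folds over the knockout IP of 1.01, 0.62 and 0.65, with a mean of 0.76 ± 0.22 (SD, n = 3). Inner peaks had 1.18, 0.88 and 1.17. The median difference within genes was -0.022, -0.41 and -0.32, a mean of -0.25 ± 0.20 (SD, n = 3). In control 1 the 5′ end was the lower part in 50.7% of genes, so that neither part led. With the highest 5′ peak of each gene in place of the mean, the difference over the knockout IP was 0.014 and its sign turned.

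The peaks compared so far were called in each IP separately. Of the 12110 sites, 6290 (51.9%) were called over input in 1 of the 4 IPs and 1910 (15.8%) in all 4. Of the 2391 sites called in all 3 controls, 79.9% were also called in the knockout. Inner sites of the same genes were called in all 4 IPs at 3.27%. The other shares are not given for inner sites, so they are not compared with the rest of the genes. At the 1910 sites of all 4 IPs the value of an IP is its peak with the highest log2 fold. The median over input was 0.44, 0.016 and -0.23 in controls 1 to 3 and -0.84 in the knockout. At these sites the median gap of control over knockout was 1.31, 0.90 and 0.63 (mean 0.94 ± 0.34, SD, n = 3). At 10631 matched inner sites of the same genes it was 0.81, 0.54 and 0.42, a mean of 0.59 ± 0.20 (SD, n = 3). Each control had the wider gap at the 5′ end.

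Matched sites gave the opposite order over the knockout IP from that of all called peaks. The 1910 matched 5′ sites had medians over the knockout IP of 0.86, 0.43 and 0.45 in controls 1 to 3. The 10630 inner sites called in all 7 lists had 0.39, 0.30 and 0.32. In each control the 5′ sites were the higher group here, whereas among all called peaks the inner peaks were higher. Matched sites exclude stretches with no knockout peak, and they were 15.8% of 5′ sites but 3.27% of inner sites.

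All 3 controls lay above the knockout over input at 1247 (65.3%) of the 1910 matched 5′ sites, against 53.1% of all 13307 matched sites of the same genes, 5′ ends included. The knockout lay above all 3 controls at 105 (5.50%), against 11.4% of all matched sites. At 274 sites (14.3%) all 3 controls were above their input and the knockout was below it, close to the 12.9% of inner sites. All 4 IPs were above input at 173 (9.06%) of the 5′ sites and at 22.4% of the inner sites. Across the 1910 sites, the log2 folds over input of pairs of IPs had Pearson correlations of 0.33 to 0.40. At inner sites these were 0.57 to 0.65. Sites share libraries and genes, and these values are a description.

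**Figure D3:**
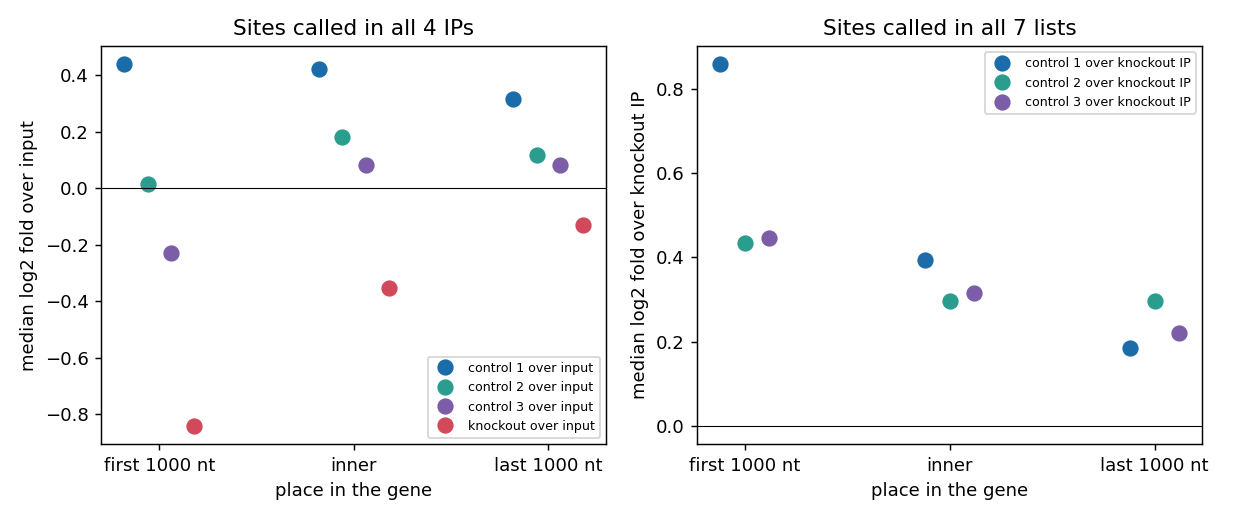
Median log2 fold at matched sites in the first 1000 nt, the inner part and the last 1000 nt of the same genes: over input at sites called in all 4 IPs (left) and over the knockout IP at sites called in all 7 lists (right), with 1 point per list. On the left, the 5′ medians of the controls, 0.44, 0.016 and -0.23, all lie above the knockout median of -0.84.

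Strong enrichment was rare at 5′ ends. A peak with both a log2 fold and a −log10 p of 3 or more counted as enriched. Over input, 25 regions (0.355%) of control 1 passed, against 1.02% of all its called peaks. In control 2 it was 7 (0.108%), against 1.05%. In control 3 it was 6 (0.106%), against 0.494%. In the knockout it was 8 (0.120%), against 0.316%. Each share was below that of the whole list, and control 3 and the knockout did not stand apart.

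Over the knockout IP, 40 regions (0.568%) of control 1 were enriched, close to the 0.621% of its whole list. In control 2 it was 15 (0.232%), against 1.09%. In control 3 it was 15 (0.265%), against 0.648%. In the first 300 nt the number was 22 (0.638%), 8 (0.244%) and 4 (0.141%) in controls 1 to 3. In all, 94 of the 12110 sites, in 83 genes, held an enriched peak of any list. This count by site is not given for inner sites, so only the shares of peaks above are set against the whole lists.

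Of the 12110 sites, 2 were enriched over both comparators in 2 of the 3 controls, and both lay outside the first 300 nt. The same count at inner sites is not given here, so this number is not compared with the rest of the genes. The site in Aaas, which encodes the nuclear pore protein aladin, spanned chr15:102350118-102350362 on the minus strand, 519 nt from the gene start. Controls 1 to 3 had log2 folds over input of 2.90, 4.26 and 4.06 (mean 3.74 ± 0.74, SD, n = 3), and no peak was called in the knockout. Over the knockout IP it was 3.18, 5.28 and 3.46, a mean of 3.97 ± 1.14 (SD, n = 3). The site in Zfp26, a zinc finger protein gene, spanned chr9:20459689-20459800 on the minus strand, 425 nt from the start. Its log2 fold over input was 4.12, 3.07 and 3.99, a mean of 3.73 ± 0.57 (SD, n = 3), and over the knockout IP it was 2.82, 5.00 and 3.39, a mean of 3.74 ± 1.13 (SD, n = 3). In both genes control 2 had the highest fold over the knockout IP, and 1 control missed a threshold of 3 in 1 comparison. Without control 2 or without control 3, the count of such sites was 0.

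Other sites were enriched in 2 controls over 1 comparator, and these were named after their values were seen. Nup85, which encodes a scaffold protein of the nuclear pore, had log2 folds of 2.90, 4.10 and 3.30 over input, and 2.18, 3.38 and 3.28 over the knockout IP, with no peak called in the knockout. Pdlim7, which encodes a PDZ and LIM domain protein of the actin cytoskeleton, had 1.58, 2.90 and 2.30 over input and 2.60, 3.51 and 3.28 over the knockout IP. Both sites were high in all 3 controls and were not called in the knockout. Ermp1, an endoplasmic reticulum metallopeptidase gene, had 3.92, 3.24 and 2.00 over the knockout IP but 0.31, 0.08 and -1.21 over input. Agrn, which encodes agrin, had 3.85, 0.68 and 3.49 over the knockout IP and 0.83, 0.72 and 0.98 over input, where the knockout had 1.65, above all 3 controls. Ermp1 and Agrn were thus high over the knockout IP, in 2 controls or more, without being high over input.

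Jdp2, a bZIP transcription factor gene, had log2 folds over the knockout IP of 4.06 and 3.47 in controls 1 and 2, and no peak in control 3. Over input the same controls had -0.47 and 1.19. The Lzts2 site at chr19:45015696-45015786 had log2 folds over input of 4.52, 2.39 and 3.35 in controls 1 to 3 and 1.11 in the knockout. Over the knockout IP, it had 1.29, 0.41 and 0.81. All 3 controls were above the knockout in both comparisons at this site. A neighbouring Lzts2 site, at chr19:45015817-45015882, had 3.43, 2.72 and 1.60 over input in the controls. Its knockout value of 2.82 was inside their range, and over the knockout IP it had 1.05, -0.25 and 0.26. Another enriched Lzts2 site, 813 nt from the start, had no knockout peak.

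The sites highest over input in all 4 IPs were chosen by the lowest of the 4 values, the knockout included. At Cdk11b, a cyclin-dependent kinase gene, the site at chr4:155625365-155625515 on the plus strand had log2 folds over input of 2.48, 4.02 and 4.30 in controls 1 to 3 and 4.20 in the knockout. Its folds over the knockout IP were -1.44, -0.93 and -0.30. Cdk11b also held a pair of neighbouring sites called in the knockout only, with log2 folds over input of 3.86 and 3.60. At Aff4, a scaffold gene of the super elongation complex of transcription, the values were 2.99, 2.49 and 2.26 in the controls, with a knockout value of 4.12. The knockout was the highest IP at Aff4 and inside the control range at the Cdk11b site of all 4 IPs.

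At Lsm6, a subunit of the Lsm ring that binds U6 and decaying mRNA, the values over input were 2.64, 3.72 and 2.77 in controls 1 to 3 and 2.65 in the knockout. A second Lsm6 site, 944 nt from the start, had 3.90 and 3.84 in controls 1 and 3 and 2.55 in the knockout. Pcyt1a, the rate-limiting enzyme of phosphatidylcholine synthesis, held a pair of such sites, with 2.90, 3.19, 2.60 and a knockout value of 2.65 at the first. At the other it had 2.64, 2.82, 2.50 and a knockout value of 2.82. Over the knockout IP, the log2 folds at both Pcyt1a sites were below 0 in all 3 controls. Mpc1, a subunit of the mitochondrial pyruvate carrier, had 1.48 and 2.60 over input in controls 1 and 3, no peak in control 2 and 3.55 in the knockout.

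The 5 sites with the lowest highest value over input in all 4 IPs were also chosen with the knockout included. At Hnrnpll, a splicing factor of the hnRNP family, the log2 folds over input were -2.01, -1.26 and -2.47 in controls 1 to 3 and -3.14 in the knockout. At Stt3b, a catalytic subunit of oligosaccharyltransferase, they were -1.21, -0.98 and -1.86 in the controls and -3.08 in the knockout. At Rnf10, a RING finger protein gene, they were -1.10, -2.12 and -1.49 in the controls and -3.00 in the knockout. Faf1 and Zfand3 completed this group, with control means of -1.28 ± 0.30 and -1.22 ± 0.23 (SD, n = 3) and knockout values of -2.52 and -1.88. At each of these 5 sites the knockout lay below all 3 controls.

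**Figure D4:**
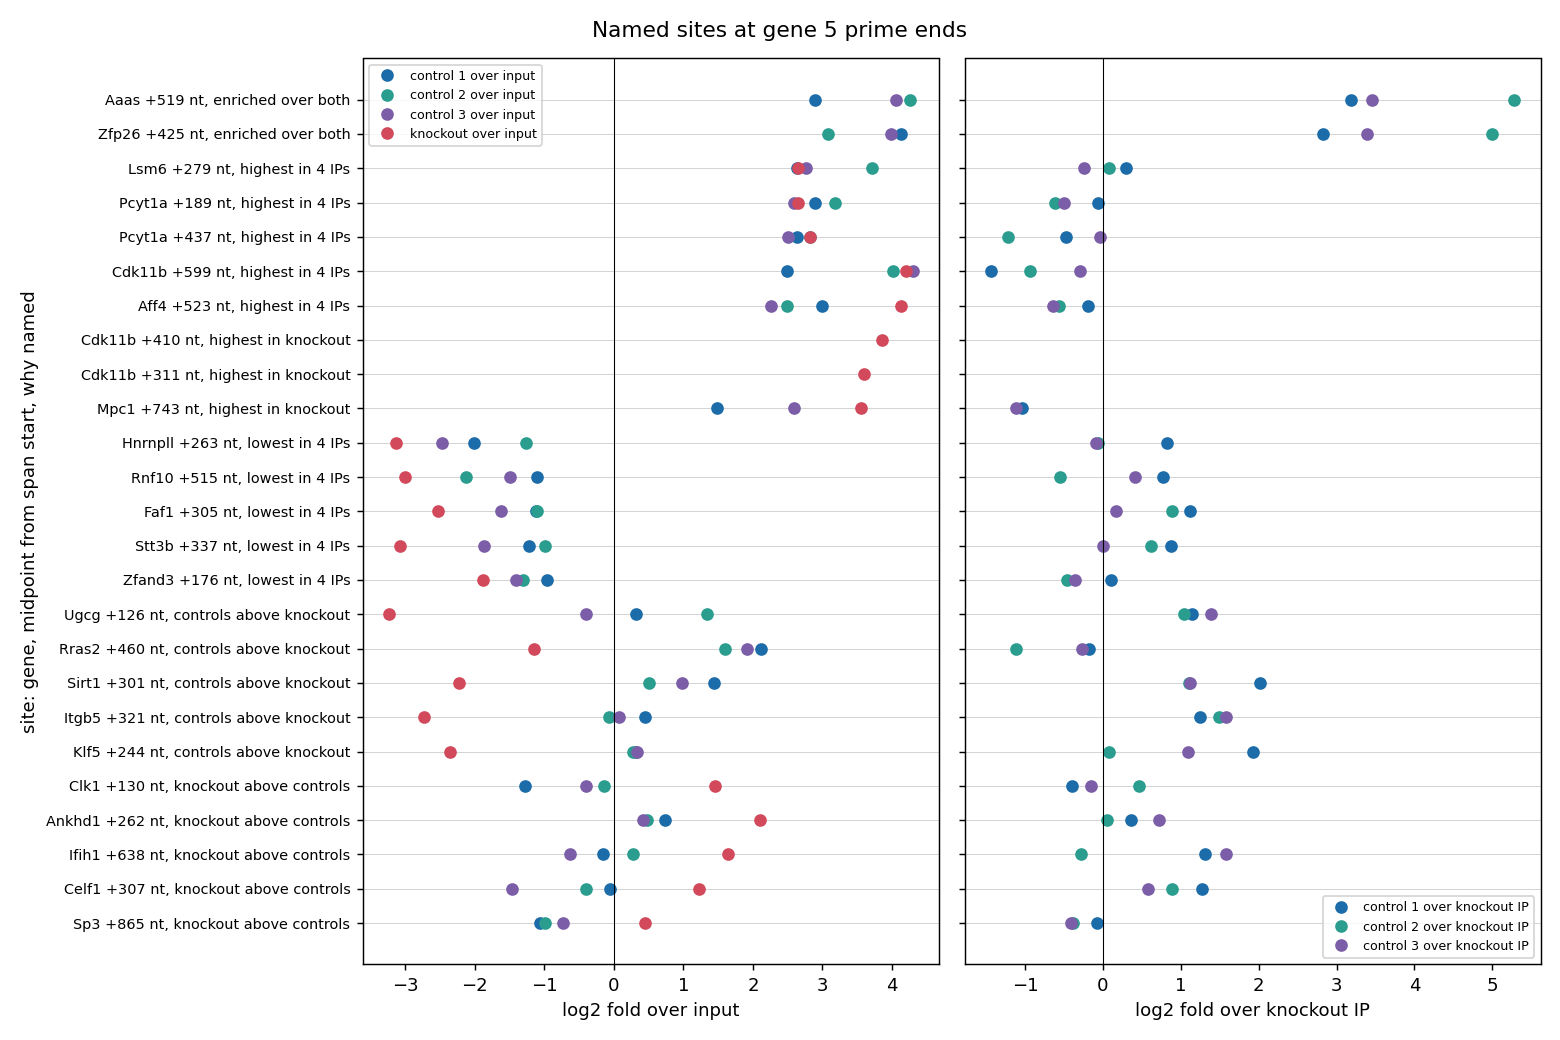
Named 5′ sites, with the log2 fold over input of each IP on the left and the log2 fold over the knockout IP of each control on the right. Aaas and Zfp26 have no knockout point and lie at or above 2.82 on both sides, whereas Cdk11b and Aff4 are high over input in all 4 IPs and below 0 over the knockout IP.

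The sites with the widest gap of controls over the knockout were chosen for that gap, which is therefore a description. At Rras2, a small GTPase of the Ras family, the log2 folds over input were 2.12, 1.60 and 1.92 in controls 1 to 3 and -1.15 in the knockout. Yet the folds of the same controls over the knockout IP were -0.18, -1.12 and -0.26, so that the comparators gave opposite signs. At Sirt1, an NAD-dependent deacetylase, the values over input were 1.44, 0.50 and 0.98 in the controls and -2.23 in the knockout, and over the knockout IP they were 2.01, 1.10 and 1.11. At Klf5, a zinc finger transcription factor, they were 0.31, 0.28 and 0.33 in the controls and -2.35 in the knockout, and 1.92, 0.07 and 1.10 over the knockout IP. Sirt1 and Klf5 were above 0 in all 3 controls over both comparators.

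At Ugcg, the glucosylceramide synthase, the values over input were 0.31, 1.34 and -0.40 in controls 1 to 3 and -3.23 in the knockout. At Itgb5, an integrin beta chain, they were 0.45, -0.07 and 0.08 in the controls and -2.73 in the knockout. Both sites spanned input level in the controls and were above 0 over the knockout IP in all 3, with means of 1.19 ± 0.18 and 1.44 ± 0.17 (SD, n = 3).

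The opposite gap was found at Clk1, a kinase of SR splicing proteins, with log2 folds over input of -1.27, -0.14 and -0.40 in controls 1 to 3 and 1.45 in the knockout. Celf1, an RNA-binding splicing regulator, had -0.05, -0.40 and -1.46 in the controls and 1.23 in the knockout. Its folds over the knockout IP were nonetheless above 0, at 1.28, 0.88 and 0.58. Ifih1, a sensor of double-stranded RNA, had -0.16, 0.28 and -0.63 in the controls and 1.65 in the knockout. Sp3, a transcription factor, had -1.06, -0.98 and -0.73 in the controls and 0.45 in the knockout, and Ankhd1 had 0.73, 0.48 and 0.42 against 2.11. At all 5 sites the knockout was the highest IP over input. Over the knockout IP, Ankhd1 was above 0 in all 3 controls as well, at 0.36, 0.056 and 0.71. Ifih1 had 1.31, -0.29 and 1.58 there, Clk1 had -0.40, 0.47 and -0.15, and Sp3 had -0.08, -0.38 and -0.42.

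A gene had a median of 2 such sites and at most 10. Srpk1, a kinase of SR proteins, had 10 sites, and 0 of them were called in all 4 IPs. Its 5, 2 and 4 peaks over input in controls 1 to 3 had median log2 folds of 1.64, 2.14 and 1.21, and the knockout had 0 peaks there. Fam193a, Mpc1, Ski and Chd7 had 9 sites each. Chd7 encodes a chromatin remodeller. Ski, a corepressor of TGF-beta signalling, had medians over input of 0.65, 0.42 and 0.27 in the controls and -0.22 in the knockout. At Fam193a, Mpc1 and Chd7 the knockout medians over input were 0.23, 2.81 and 0.24, each inside the range of the control medians.

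Genes were then grouped by function in 9 lists, which were chosen with earlier results of these data known. Over all eligible genes, 74.6% had a 5′ peak. Among genes of the Ras, MAPK and PI3K pathways, 43 of 48 (89.6%) did, and the 5′ minus inner difference over input was -0.68 ± 0.38 (SD, n = 3) in the controls and -0.94 in the knockout. For p53 regulators and targets, 20 of 26 genes (76.9%) had a 5′ peak, and it was -0.54 ± 0.17 (SD, n = 3) and -0.79. For the actin cytoskeleton and focal adhesion, 36 of 42 (85.7%) had a 5′ peak, and it was -0.46 ± 0.24 (SD, n = 3) and -0.58. Over all eligible genes it was -0.43 ± 0.16 (SD, n = 3) and -0.58. In controls 1 to 3 the Ras list had -0.34, -0.61 and -1.08, each below the value over all eligible genes in the same control, -0.24, -0.50 and -0.55.

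Genes of RNA processing and translation had control means nearer 0. For translation factors, 20 of 23 genes (87.0%) had a 5′ peak, and the difference over input was -0.066 ± 0.32 (SD, n = 3) in the controls and -0.26 in the knockout. For SR proteins and hnRNPs, 30 of 41 (73.2%) had a 5′ peak, with -0.17 ± 0.27 (SD, n = 3) and -0.64. For the core spliceosome, 34 of 38 (89.5%) had a 5′ peak, with -0.19 ± 0.26 (SD, n = 3) and -0.11. Each of these means was below 0 by less than its own spread over controls. Chromatin regulators (49 of 69, 71.0%) had -0.30 ± 0.25 and extracellular matrix genes (19 of 21, 90.5%) -0.18 ± 0.31 (SD, n = 3), with -0.39 and -0.78 in the knockout. Ribosomal protein and other TOP mRNAs, with 8 of 9 genes (88.9%), had -0.082 ± 0.19 (SD, n = 3) and -0.32.

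**Figure D5:**
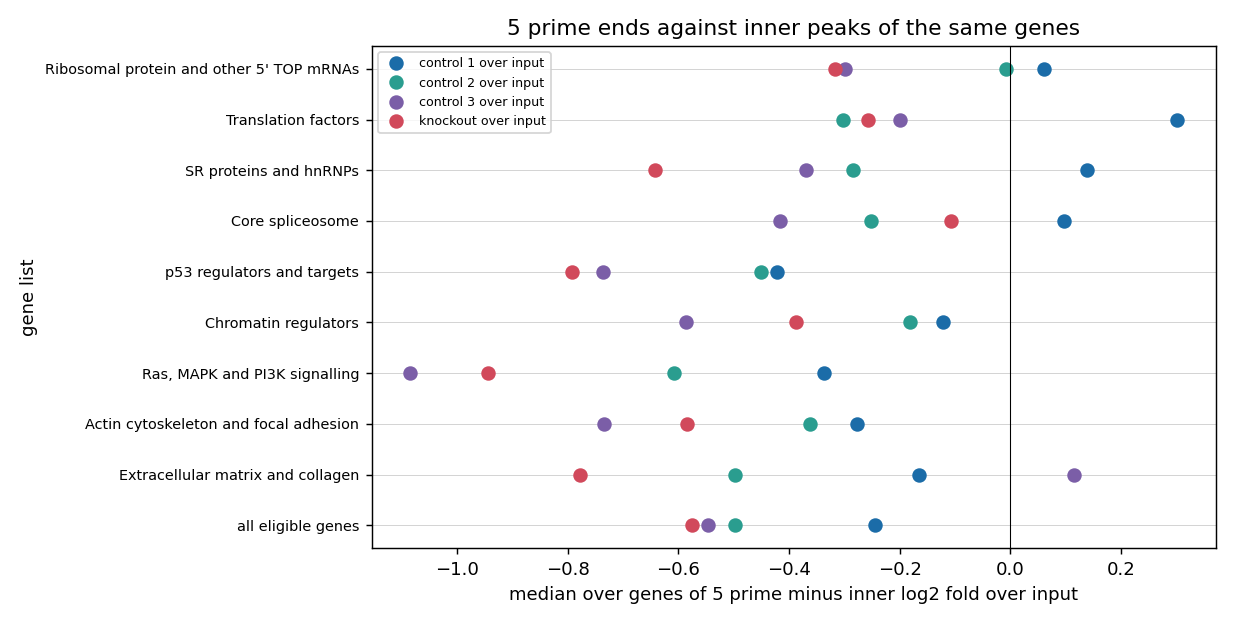
Difference in log2 fold over input between 5′ and inner peaks of the same gene, as the median over the genes of each list, with 1 point per IP. The Ras, MAPK and PI3K list has the lowest control mean, -0.68, and translation factors the one nearest 0, -0.066.

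Within these gene lists the genes named are those whose 5′ peaks were called in most of the 7 peak lists. Ties were broken by the highest mean log2 fold over input in the controls. The genes were thus picked for control values high within their list, and a gap to the knockout depends in part on that choice. Tra2a, a splicing activator of the SR family, had nearly equal log2 folds over input of 1.11, 1.07 and 1.18 in controls 1 to 3 and 1.06 in the knockout. Tial1, an RNA-binding protein of stress granules, had 1.38, 1.79 and 0.60 in the controls and 1.35 in the knockout. Hnrnpa3 had 1.24, 1.68 and 0.77 in the controls and 0.88 in the knockout. At these 3 genes the knockout did not lie apart from the controls, or in Tra2a lay just below them. The helicase Dhx15 of the spliceosome had 0.72, 0.10 and 0.25 in the controls and 0.36 in the knockout.

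Among translation factors, Eif4g1, the scaffold of cap-dependent initiation, had 0.59, 1.02 and 1.47 over input in controls 1 to 3, with a knockout value of -1.16. Eif3l, a subunit of the eIF3 complex, had 1.22, 0.60 and -0.08 in the controls and -2.03 in the knockout. Eif4b, an activator of the initiation helicase named from the TOP mRNA list, had -0.10, -0.36 and -0.67 in the controls and -1.51 in the knockout. Eif4g2, a relative of Eif4g1, had 3.42, -0.11 and 0.73 in the controls, with a knockout value of -0.07. The knockout lay below all 3 controls at Eif4g1, Eif3l and Eif4b and inside their range at Eif4g2. Over all matched 5′ sites, 65.3% had the knockout below all 3 controls.

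Among signalling genes, the kinase Braf had 0.58, 0.016 and 0.60 over input in controls 1 to 3, with a knockout value of -1.84. The kinase Akt1 had 1.22, 0.65 and 1.40 in the controls and -0.72 in the knockout. Sos2, an exchange factor of Ras, had 1.56, -0.25 and 0.92 in the controls and -2.09 in the knockout, with 2.53, 1.62 and 2.90 over the knockout IP. Rock2, a kinase of the actin cytoskeleton, had 0.76, 0.60 and 1.18 in the controls, with a knockout value of -0.81. Also picked from the actin list, Fmnl2 had 1.61, 1.02 and 0.082 in the controls and 0.17 in the knockout. Tln1 had 0.69, 1.37 and -1.10 in the controls and -0.67 in the knockout. At Fmnl2 and Tln1 the knockout was inside the control range. The histone methyltransferase gene Setd1a had 0.69, 2.60 and 0.86 in the controls and -1.03 in the knockout, but its folds over the knockout IP lay near 0, at -0.092, -0.12 and 0.17. Ezh2 and Arid2, also picked from the chromatin list, had knockout values over input of 0.73 and -0.35. The knockout was inside the control range at Ezh2 and below all 3 controls at Arid2.

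Of the p53 genes, Mdm2, the ubiquitin ligase of p53, had 0.58, -0.15 and -0.02 over input in the controls and -0.71 in the knockout, and -0.92, 0.40 and -1.85 over the knockout IP. Of matrix genes, Nid2, which encodes a nidogen, had 0.80, -0.53 and 0.04 in the controls and -1.09 in the knockout, with 3.14, 0.54 and 2.86 over the knockout IP. Lama5 and Hspg2, also picked from the matrix list, had knockout values over input of -0.35 and -0.23, each inside the control range. Among the controls, control 2 was the lowest at Nid2 in both comparisons.

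The starts of genes with 5′ peaks were richer in G and C, a feature the rule did not use. The first 50 bases had a median GC content of 70% in 1840 genes with a 5′ peak over input in all 4 IPs, 68% in 1899 genes with one in 1 to 3 IPs and 64% in 765 genes with none. Over all 4504 eligible genes with such a start it was 68%, and over 32851 promoter entries of the table it was 56%. The motif GCGGC was found in 37.0%, 30.6% and 21.6% of these gene groups. It was found in 31.7% of the 4504 genes and in 12.3% of all entries. Its reverse complement GCCGC was found in 26.6%, 20.7% and 16.3%, in 22.4% of the 4504 genes and in 9.03% of all entries. The motif TTTTT was found in 1.41%, 1.37% and 1.57%, in 1.42% of the 4504 genes and in 3.67% of all entries. For GTAAG it was 1.41%, 1.90% and 2.61%, with 1.82% of the 4504 genes and 3.60% of all entries. A start of C followed by 4 pyrimidines was found in 2.01%, 2.00% and 1.44%, in 1.91% of the 4504 genes and in 2.51% of all entries.

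The gap within genes was compared between classes of GC content. The 5′ minus inner difference over input was -0.40 ± 0.14 (SD, n = 3) in the controls for genes with low GC content of the first 50 bases, -0.42 ± 0.18 (SD, n = 3) for middle and -0.45 ± 0.17 (SD, n = 3) for high. From low to high GC content it was -0.23 and -0.26 in control 1, -0.47 and -0.50 in control 2 and -0.49 and -0.58 in control 3. In the knockout the classes had -0.42, -0.58 and -0.63. The high class was below the low class in each of the 4 IPs. Gene expression, which the lists do not give, was not compared between the gene groups.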

How the data were processed

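CLIP peaks from 8 samples (4 IPs and 4 inputs) were analysed from 7 deposited lists on mm10, the build in the submitters' processing notes. Per the values, since the lists have no header, the authors deposited, for each peak, a log2 fold of the IP over its comparator and a −log10 p-value. The deposited −log10 p-value was capped at 400 and was above 0 at 0 peaks that had a negative log2 fold. For the aligner, caller, treatment of duplicates and choice of input, versions and settings were not given in the sources used here. No read counts are in the lists, so depth is unknown and intervals that need it are not given. Inputs have no list of their own.

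The RefSeq gene table (GRCm38.p6) gives spans without exons. Peaks on short non-coding genes (up to 500 nt) were set aside, and the rest were assigned by midpoint where it lay in exactly 1 protein-coding gene. Member peaks of all lists that overlapped by at least 1 nt on one strand were merged into sites. A site's value in a list is its highest peak. Motifs were searched in the first 50 bases on the given strand, with the reverse complement counted separately. Coordinates are 1-based. Python 3.11.15, pandas 2.3.3, numpy 2.4.6 and SciPy 1.17.1 were used, and the steps were tested on simulated data.

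Named sites were the sites enriched over both comparators in at least 2 controls, the 5 highest and 5 lowest over input in all 4 IPs, the 5 highest enriched knockout sites, the 5 widest gaps between controls and knockout in each direction, the 5 genes with most sites, up to 3 genes per list, and the 3 peaks on each side of the limit. The members, lists and rules were chosen with earlier results of these data known. Replicates are lines with different guides, so the SD is the spread between 3 lines. Alternatives were other windows, gene lengths, thresholds and strand sources, other summaries, peak and gene filters, and leaving out each control.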

Additional observations from a re-analysis of the deposited data

Results flagged for a closer look

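In the knockout, the median log2 fold over input of the peaks at gene 5′ ends was -0.51, while all 3 controls had medians above 0. In control 3 it was only 0.012, with 52.1% of the peaks above 0. The knockout was also the lowest IP at inner peaks, with a median of 0.23 against 0.90, 0.69 and 0.60 in controls 1 to 3. Because the knockout is 1 library, these differences and those below were not tested.

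Single sites with every control on one side of 0 over input and the knockout on the other were as follows. All 3 controls were above input and the knockout below it at Rras2 (knockout log2 fold -1.15), Sirt1 (-2.23), Klf5 (-2.35), Eif4g1 (-1.16), Setd1a (-1.03), Akt1 (-0.72), Braf (-1.84) and Rock2 (-0.81). The opposite held at Clk1 (knockout log2 fold 1.45), Celf1 (1.23) and Sp3 (0.45). Eif4g1, Setd1a, Akt1, Braf and Rock2 were named from gene lists, with ties broken by a high control mean. The other sites were named for their gap. Of the 1910 matched 5′ sites, 274 had the first pattern and 16 the second.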

How the results depend on the processing

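Of 171 values under 22 settings, 150 stayed within the spread between controls or within 1.5 times for counts, 20 moved further and 1 changed sign. The 5′ minus inner difference over input stayed below 0 in 31 of 31 values. With the highest 5′ peak per gene it was -0.16 in the controls and -0.13 in the knockout, and over the knockout IP it turned to 0.014. In the knockout it was -0.38 in the first 2000 nt and -0.84 with peaks of at least 60 nt. The mean number of 5′ peaks over input in the controls, 6395, was 2812 in genes whose span start is a table start and 3533 with peaks of at least 60 nt, alternatives chosen after seeing the data. With a log2 threshold of 2 the enriched share was 0.466% over input and 1.27% over the knockout IP. Over the knockout IP it was 0.0764% with a log2 threshold of 4 and 0.114% at a −log10 p of at least 5. The 2 sites enriched over both comparators in 2 controls were 1 in the first 500 nt, 6 in the first 2000 nt, 1 in genes of at least 20 kb, 0 at either stricter threshold and 0 with support by all 3 controls. They were 1 with table starts and 1 with peaks of at least 60 nt, and 0 to 2 without each control. No paired analysis was possible because controls and knockout share only 1 replicate number and the results come from no test. Differences within each control line are given per line. The cause of these changes was not tested.

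Without read counts, low folds cannot be told from few reads. Sites not called in an IP have no value there, so matched sites are a subset. The spans give no exons, so exonic and intronic sites were not separated. The over-knockout lists share 1 library, and gene expression was not measured.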
